A study of Homo sapiens with 6 samples.

Results

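CRTAP and the enzymes and helpers that modify collagen in the endoplasmic reticulum (ER) were followed in Cisplatin-treated tubular cells with and without silencing of NAT10. The set held 10 genes, CRTAP, P3H1, PPIB, SERPINH1, P4HA1, P4HA2, PLOD1, PLOD2, PLOD3 and FKBP10, and all 10 were found among the 62754 genes of the count table. The members were picked by name, with the difference between the groups in these same libraries already known, and the set was built around CRTAP, whose counts were far lower after silencing. Their values in this contrast are therefore given as a description. Whether a member passed in the fit over all genes is stated, with no p-value, and nothing is supported with it. A member with fewer than 10 counts in 3 of the libraries would have been reported as low. None of the 10 was, and the smallest count of any member in any library was 819, for P3H1.

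HK-2, an immortalized human proximal tubule epithelial line, was treated with Cisplatin, a platinum drug that damages DNA and injures tubular cells. The cells carried either a negative control siRNA (CP+siNC) or an siRNA against NAT10 (CP+siNAT10), an RNA acetyltransferase. Each group had 3 libraries of mRNA, and both groups received Cisplatin, so no value here describes cells without the drug. The total counts were 19321665, 21602988 and 19464027 in CP+siNC and 20793709, 21531774 and 25192736 in CP+siNAT10.

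Collagen chains enter the ER unfolded and are modified there before they wind into a triple helix. Prolyl 4-hydroxylases make the helix stable at body temperature, prolyl 3-hydroxylation marks a few further prolines, and lysyl hydroxylases prepare lysines for sugars and for later cross-links. Chaperones hold the chains apart or guard the finished helix, and inherited loss of several of these genes, CRTAP among them, causes brittle bones. In the kidney, tubular cells rest on a basement membrane built on type IV collagen, to which they add chains of their own.

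The targeted gene was checked first. NAT10 was at 75.8, 71.4 and 73.2 CPM (counts scaled to a common library size) in CP+siNC and at 41.3, 40.5 and 42.4 CPM in CP+siNAT10. Every CP+siNAT10 library was below every CP+siNC library, the direction its label calls for. The level after silencing was 56.4% of the control mean, with a log2 fold change of -0.82 ± 0.0426 (SE, n = 3 per group; edgeR quasi-likelihood test, Benjamini-Hochberg adjusted p = 2.79e-15).

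Of the 10 members, 6 had an adjusted p under 0.05 and are called here, 2 of them higher and 4 lower in CP+siNAT10. Over all 19874 genes tested, 44.1% were called, 21.8% higher and 22.3% lower. The 3 libraries of one group did not overlap the 3 of the other for 8 of the 10 members, and for 51.4% of all genes tested. CRTAP alone among the members also had a log2 fold change over 1 in size, a limit that 2.33% of all genes tested passed together with the adjusted p. With plain library size scaling in place of TMM, the members split into 3 higher and 3 lower. Nothing about the members as a set is read from these counts, since the contrast was known when they were picked. In bulk RNA, fewer cells that use a gene and less of its RNA per cell cannot be told apart.

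CRTAP (ENSG00000170275, chr3:33114014-33147773 on GRCh38, plus strand) encodes cartilage-associated protein. It has no known catalytic activity of its own and holds the prolyl 3-hydroxylase complex together. Its level was 180.7, 181.5 and 181.4 CPM in CP+siNC and 74.9, 73.2 and 69.7 CPM in CP+siNAT10. The control libraries were almost identical, and each silenced library was well below them. The mean after silencing was 40.0% of the control mean, a log2 fold change of -1.32 ± 0.0362 (SE, n = 3 per group). CRTAP ranked 88 from the lowest log2 fold change among the 19874 genes tested, and 27 among the 12304 that averaged 5 CPM or more. Its counts were 3403, 3886 and 3494 in CP+siNC and 1576, 1599 and 1767 in CP+siNAT10.

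P3H1 encodes the prolyl 3-hydroxylase itself, the catalytic partner of CRTAP, and the proteins are known to stabilize each other. Its level was 43.5, 42.0 and 43.6 CPM in CP+siNC and 48.2, 44.3 and 45.6 CPM in CP+siNAT10. The silenced libraries were all slightly above the controls, but the gap was small beside the spread within the silenced group. The log2 fold change was 0.10 ± 0.0461 and P3H1 was not called. It was called only with library size scaling, where the log2 fold change was 0.13.

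PPIB encodes cyclophilin B, the prolyl isomerase of the complex, which also helps many other secreted proteins to fold. Its level was 257.3, 252.5 and 256.7 CPM in CP+siNC and 316.3, 296.4 and 297.7 CPM in CP+siNAT10. All silenced libraries were above all controls. PPIB was called higher, with a log2 fold change of 0.25 ± 0.0337. The components of this complex thus went in different directions, CRTAP lower, PPIB higher and P3H1 not called.

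Ratios within a library do not depend on the scaling between libraries, and RPKM (CPM divided by the gene length in kilobases) allows genes to be set side by side. The ratio of CRTAP to P3H1 in RPKM was 4.22, 4.39 and 4.23 in CP+siNC and 1.58, 1.68 and 1.55 in CP+siNAT10. CRTAP remained above P3H1 in every library, by a much smaller margin after silencing. The ratio of CRTAP to PPIB in RPKM had a mean of 0.465 ± 0.00559 (SD, n = 3) in CP+siNC and 0.157 ± 0.00439 (SD, n = 3) in CP+siNAT10. The ratio of PPIB to P3H1 in RPKM differed far less, from 9.19 ± 0.0976 to 10.2 ± 0.128 (SD, n = 3 per group).

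**Figure D1:**
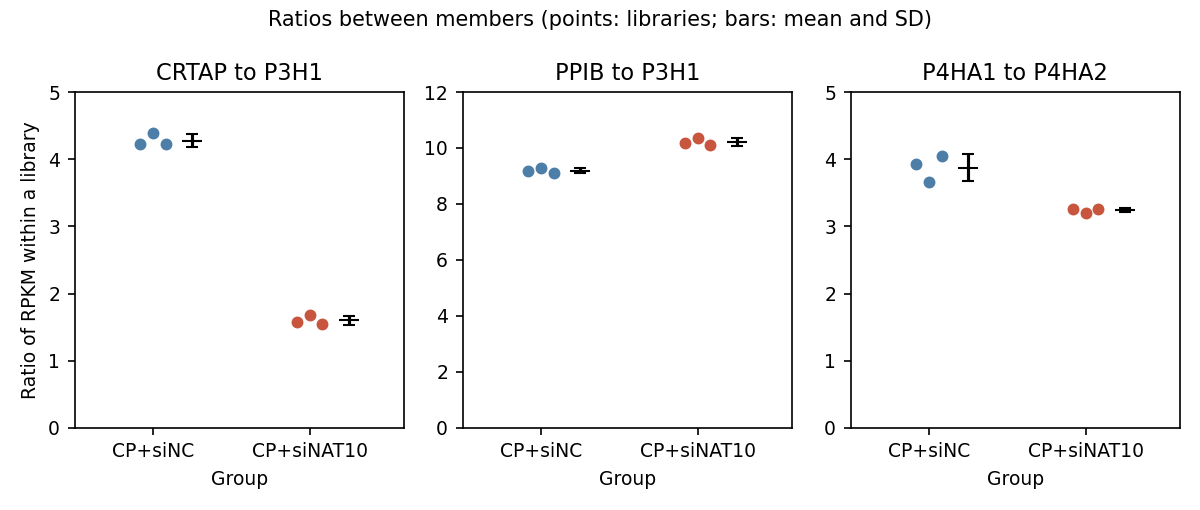
Ratio of RPKM between a pair of members within each library (linear axes from 0), for CRTAP to P3H1, PPIB to P3H1 and P4HA1 to P4HA2; points are libraries, and the bars beside them give the mean and SD of 3 libraries. The CRTAP to P3H1 ratio lay between 4.22 and 4.39 in CP+siNC and between 1.55 and 1.68 in CP+siNAT10, while the PPIB to P3H1 ratio moved from a mean of 9.19 to 10.2.

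Because the genes of the 3-hydroxylation complex differed in direction, the windows around their start sites are shown, from 250 bases before to 50 after the RefSeq start on GRCh38.p14. Windows were found for 9 of the 10 members, and SERPINH1 has a pair of them that overlap by 80 bases, counted here as 1 gene. Each is written 5′ to 3′ on the gene's own strand. Capitals mark matches on either strand to any of 3 motifs, and neighbouring or overlapping matches run together. The GC box, a site for Sp1-like factors, was searched as GGGCGG. The pentamer of the NF-Y box was searched with the letters CCAAT. The core that hypoxia response elements share with some E-boxes was searched with the letters ACGTG. The CRTAP window is chr3:33113764-33114063 on the plus strand, the P3H1 window chr1:42766979-42767278 on the minus strand and the PPIB window chr15:64162973-64163272 on the minus strand.
CRTAP: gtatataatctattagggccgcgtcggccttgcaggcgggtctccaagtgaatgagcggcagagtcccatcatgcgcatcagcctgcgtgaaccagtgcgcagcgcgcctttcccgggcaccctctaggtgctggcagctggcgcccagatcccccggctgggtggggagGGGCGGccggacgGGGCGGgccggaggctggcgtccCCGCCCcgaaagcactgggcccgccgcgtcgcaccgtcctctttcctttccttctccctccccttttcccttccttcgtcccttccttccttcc
P3H1: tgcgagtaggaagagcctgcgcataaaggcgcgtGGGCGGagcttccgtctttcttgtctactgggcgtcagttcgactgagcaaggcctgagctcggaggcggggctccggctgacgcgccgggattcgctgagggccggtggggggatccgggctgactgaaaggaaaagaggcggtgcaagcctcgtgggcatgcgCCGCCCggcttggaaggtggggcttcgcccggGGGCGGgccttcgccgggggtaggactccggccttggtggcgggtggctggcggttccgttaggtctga
PPIB: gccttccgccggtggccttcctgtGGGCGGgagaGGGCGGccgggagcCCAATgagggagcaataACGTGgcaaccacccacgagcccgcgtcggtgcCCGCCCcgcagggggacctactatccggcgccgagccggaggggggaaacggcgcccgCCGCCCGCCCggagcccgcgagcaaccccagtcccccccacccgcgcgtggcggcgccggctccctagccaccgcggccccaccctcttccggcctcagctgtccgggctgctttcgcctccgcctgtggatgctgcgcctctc

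The CRTAP and P3H1 windows each held 3 GC boxes and no match to the NF-Y pentamer or the hypoxia core. The PPIB window held 5 GC boxes, 1 NF-Y pentamer and 1 hypoxia core. A GC box was found in 45.0% of all 35116 windows of this length, the NF-Y pentamer in 34.6% and the hypoxia core in 21.4%. Of the 9 members with a window, 7 held a GC box, 4 the NF-Y pentamer and 4 the hypoxia core. Counted as windows, these were 7, 4 and 5 of 10. The GC content of the member windows ranged from 55.7% for P4HA2 to 76.0% for PPIB. All but that of P4HA2 were above the median of 58.7% over all windows. The number with a GC box is therefore not comparable with the 45.0% of all windows. These matches are a description and not binding sites.

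The part of the CRTAP transcript after the stop codon was also read. Its longest 3′ UTR in GENCODE 29 has 5325 bases, longer than that of 93.2% of 10206 protein-coding genes averaging 5 CPM or more. A set of 3 heptamers, picked in an earlier search of these same libraries, was looked for on the sense strand. GACTATC was found in 3.94% of those genes, ACTATCA was found in 7.38% and CATATTC in 11.2%. At least 1 of the 3 was found in 18.3%, and none was found in the longest 3′ UTR of any of the 10 members. The median log2 fold change was -0.10 in genes with at least 1 of the 3 and 0.03 in the others. Since the heptamers were picked in these same libraries, this difference is only a description, and 3′ UTR length was not taken into account. Over the 10206 genes the median length was 1424 bases. All members but CRTAP had shorter ones, from 211 bases for PPIB to 1277 for PLOD2. For the members other than CRTAP, the absence is therefore not comparable with the 18.3%. CRTAP lacked a match in spite of its long 3′ UTR, and what that means was not tested.

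CRTAP shares its 3′ end with an antisense gene, ENSG00000272149 (chr3:33144104-33147721, minus strand), singled out after its values were seen. That gene had 575, 601 and 609 counts in CP+siNC and 240, 250 and 280 counts in CP+siNAT10. It was lower in all silenced libraries, with a log2 fold change of -1.41 ± 0.0648. The library kit keeps strand, but the sources do not state that counting used it. Without strand, reads of CRTAP and of its antisense neighbour cannot be told apart. PPIB likewise overlaps 94 bases at the end of SNX22, also named after its values were seen, whose log2 fold change was 0.23 ± 0.0357. PLOD3 overlaps 202 bases of ZNHIT1, chosen in the same way, whose log2 fold change was -0.01 ± 0.0487. P4HA1, P4HA2 and PLOD2 overlap further genes, each with a mean below 10 CPM in both groups.

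SERPINH1 encodes the collagen-specific chaperone that binds the folded triple helix and travels with it out of the ER. Its level was 87.4, 95.5 and 92.2 CPM in CP+siNC and 79.7, 78.4 and 80.0 CPM in CP+siNAT10. The silenced libraries were close together and below all controls, which were more spread. SERPINH1 was called lower, with a log2 fold change of -0.21 ± 0.0391.

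FKBP10 encodes another prolyl isomerase of the ER, which acts on collagen and on the lysyl hydroxylase PLOD2. Its level was 114.3, 117.0 and 112.6 CPM in CP+siNC and 107.3, 109.5 and 106.9 CPM in CP+siNAT10. The groups did not overlap but lay close to each other. FKBP10 was called lower with a log2 fold change of -0.09 ± 0.0351, and this call rested on little. It was lost without CP+siNC replicate 1 (log2 fold change -0.09), CP+siNC replicate 2 (-0.08), CP+siNAT10 replicate 1 (-0.08), CP+siNAT10 replicate 2 (-0.10) or CP+siNAT10 replicate 3 (-0.08), and also, among other settings, with library size scaling (-0.05), without a filter on low counts (-0.08) and with DESeq2 (-0.09).

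P4HA1 and P4HA2 encode alternative catalytic subunits of prolyl 4-hydroxylase, which needs oxygen, iron and ascorbate. P4HA1 was at 89.0, 87.1 and 90.1 CPM in CP+siNC and at 90.8, 88.2 and 92.2 CPM in CP+siNAT10. The groups overlapped, and its log2 fold change was 0.03 ± 0.0370, smaller than its error. P4HA2 was at 74.3, 78.1 and 72.8 CPM in CP+siNC and at 91.1, 90.1 and 92.4 CPM in CP+siNAT10. Here every silenced library was above every control, and P4HA2 was called higher with a log2 fold change of 0.28 ± 0.0384. The ratio of P4HA1 to P4HA2 in RPKM was 3.88 ± 0.202 (SD, n = 3) in CP+siNC and 3.24 ± 0.0350 (SD, n = 3) in CP+siNAT10. The size of this ratio, and in CP+siNAT10 also which subunit is the larger, rests on the deposited lengths, 3093 bases for P4HA1 and 10128 for P4HA2.

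PLOD1, PLOD2 and PLOD3 encode the lysyl hydroxylases. PLOD1 acts mainly on lysines of the helix, PLOD2 on those of the telopeptides at the chain ends, and PLOD3 also adds sugars to hydroxylysine. PLOD1 was at 57.4, 61.8 and 59.9 CPM in CP+siNC and at 56.1, 55.4 and 56.2 CPM in CP+siNAT10. The silenced libraries were below the controls, the nearest of these by little. Its log2 fold change was -0.10 ± 0.0419 and it was not called, but it was called with the stricter filter (-0.10) and without CP+siNC replicate 1 (-0.13). PLOD2 was at 134.3, 135.5 and 131.3 CPM in CP+siNC and at 133.1, 133.5 and 137.9 CPM in CP+siNAT10. These groups overlapped, and the log2 fold change of 0.01 ± 0.0342 turned just below 0 without CP+siNC replicate 3 or without CP+siNAT10 replicate 3.

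PLOD3 was at 58.1, 58.7 and 58.5 CPM in CP+siNC and at 52.4, 50.6 and 52.5 CPM in CP+siNAT10. All silenced libraries lay below the tight control values, and PLOD3 was called lower with a log2 fold change of -0.17 ± 0.0413. PLOD2 made up 30.0% ± 0.519 of the RPKM summed over these lysyl hydroxylases in CP+siNC and 32.1% ± 0.391 in CP+siNAT10 (SD, n = 3 per group). PLOD1 made up 36.5% ± 0.787 and 36.3% ± 0.250. These shares rest on the deposited lengths, 14518 bases for PLOD2 beside 5320 for PLOD1 and 5671 for PLOD3, and would be larger for PLOD2 if part of its length is little used.

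**Figure D2:**
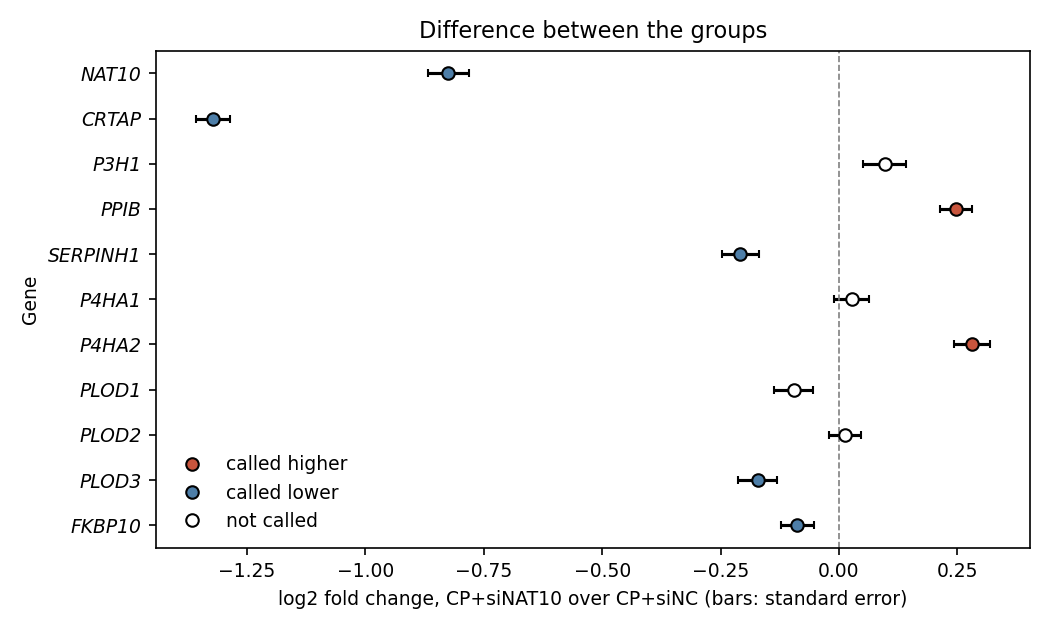
Log2 fold change of NAT10 and of each member, CP+siNAT10 over CP+siNC, with bars for 1 standard error; filled points are called at an adjusted p under 0.05 in the test over all 19874 genes, and the dashed line marks 0. CRTAP is at -1.32, and the other members lie between -0.21 and 0.28.

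Per length, PPIB was the most abundant member in CP+siNC, with 58.5 ± 0.596 RPKM (SD, n = 3). P4HA1 followed with 28.7 ± 0.486 RPKM, then FKBP10 with 27.2 ± 0.526 RPKM and CRTAP with 27.2 ± 0.0649 RPKM. FKBP10 and CRTAP did not differ beyond their spread in that group. SERPINH1 came next with 14.6 ± 0.653 RPKM, and PLOD1, PLOD3, PLOD2, P4HA2 and P3H1 ranged from 11.2 down to 6.36 RPKM. In CP+siNAT10 CRTAP had 10.9 ± 0.394 RPKM, behind SERPINH1 with 12.6 ± 0.140 RPKM. PLOD1 had 10.5 ± 0.0891 RPKM, and only the lowest CRTAP library fell within its range, the others lying above it. PLOD3, with 9.15 ± 0.193 RPKM, overlapped both PLOD2 with 9.29 ± 0.184 RPKM and P4HA2 with 9.01 ± 0.114 RPKM there, and the libraries of PLOD2 lay just above those of P4HA2. The deposited length counts every annotated exon base, so genes with long exons that are little used are placed too low on this scale.

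**Figure D3:**
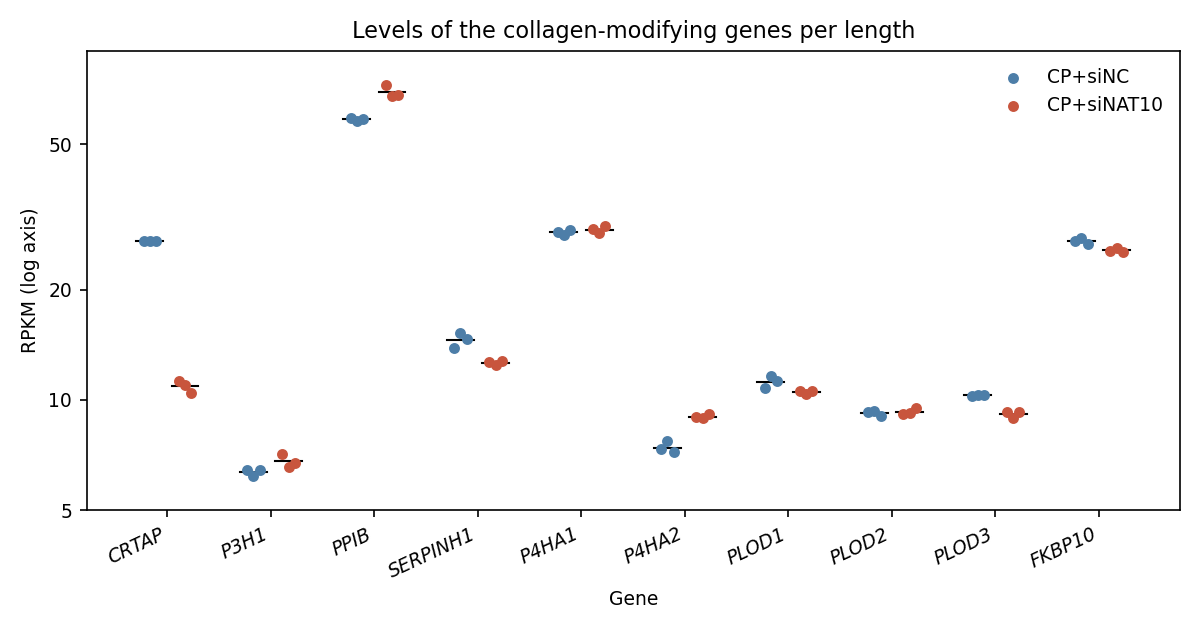
RPKM (log axis) of each member in each library; points are libraries, blue for CP+siNC and red for CP+siNAT10, and black lines are the means of 3. CRTAP lies beside FKBP10 near 27.2 RPKM in CP+siNC. In CP+siNAT10 it lies near 10.9 RPKM, with PLOD1 near 10.5 RPKM, and the other members differ by less between the groups.

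Summed over the 10 members, the level was 1102 CPM in CP+siNC and 1034 CPM in CP+siNAT10. Without CRTAP the sum was 920.4 CPM and 961.0 CPM, so the lower total came from CRTAP. The median log2 fold change of the 10 was -0.04, and 0.0004 with library size scaling, beside 0.01 and 0.04 over all genes tested. Library size scaling moved all genes by about the same step, so a median that turned sign with it moved with the rest.

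The other genes of the pathway were taken from lists of names and read in the same way, beside the 44.1% of all genes tested that were called, 21.8% higher and 22.3% lower. Among partners and paralogs, 12 of 13 were tested, 2 were called higher and 4 lower (50% called, near the 44.1% of all genes), and the median log2 fold change was -0.03 (0.003 with library size scaling). With DESeq2, 2 were called lower. P4HB, the disulfide isomerase that is the shared subunit of prolyl 4-hydroxylase, was at 376.5, 380.0 and 359.8 CPM in CP+siNC and at 435.3, 439.6 and 444.9 CPM in CP+siNAT10. It was the most abundant of the list per length, at 33.4 and 39.5 RPKM, and was called higher with a log2 fold change of 0.24 ± 0.0328. COLGALT1, which adds galactose to hydroxylysine, was also called higher at 0.22 ± 0.0368. P3H2, a prolyl 3-hydroxylase active on type IV collagen, was at 73.8, 79.5 and 77.1 CPM in CP+siNC and at 46.2, 52.7 and 53.3 CPM in CP+siNAT10. It was lower in every silenced library, with a log2 fold change of -0.60 ± 0.0475, and P3H4, a non-enzymatic relative of CRTAP, was lower by a smaller step at -0.27 ± 0.0624.

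The list for collagen export held genes of the COPII coat, which is not limited to collagen, and factors that adapt it to bulky procollagen. It was the only pathway list with no gene called lower. All 12 were tested, 10 were called higher, where 21.8% of all genes were, and the median log2 fold change was 0.21. With DESeq2, without CP+siNC replicate 2 or without CP+siNAT10 replicate 2, 8 were called higher. SEC13, a coat protein, was at 50.03, 49.98 and 50.83 CPM in CP+siNC and at 77.9, 79.6 and 75.8 CPM in CP+siNAT10, a log2 fold change of 0.63 ± 0.0404. Its coat partner SEC31A followed at 0.48 ± 0.0321, the cargo adaptor SEC24D at 0.41 ± 0.0549 and KLHL12, the ubiquitin ligase adaptor that enlarges the coat, at 0.36 ± 0.0452. MIA3, the receptor that loads procollagen and the most abundant of the list per length, rose by less, at 0.14 ± 0.0317. Summed, these genes were at 943.2, 946.5 and 951.1 CPM in CP+siNC and at 1141, 1151 and 1143 CPM in CP+siNAT10, with no overlap.

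Genes that act on collagen outside the cell went both ways. Of 15 in the list 10 were tested, 2 were called higher and 6 lower (80% called, beside 44.1% of all genes), and the median log2 fold change was -0.39. With DESeq2, or without CP+siNAT10 replicate 1, 4 were called lower. LOX, the lysyl oxidase that starts cross-linking, was at 20.4, 19.6 and 20.4 CPM in CP+siNC and at 6.41, 7.46 and 8.32 CPM in CP+siNAT10. This was the largest change among the tested genes of the list, with a log2 fold change of -1.43 ± 0.0818. PCOLCE, the enhancer of C-propeptide removal, was lower at -0.53 ± 0.111, and LOXL3, another oxidase of the LOX family, at -0.44 ± 0.0869. LOXL2, the most abundant of the list per length at 30.6 and 29.5 RPKM, was not called, with -0.06 ± 0.0337. TLL1, a procollagen C-proteinase, went the other way from 4.25, 4.02 and 3.69 CPM to 9.02, 10.6 and 8.84 CPM, with a log2 fold change of 1.25 ± 0.111.

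Of 44 collagen chain genes in the table, 19 were tested, 4 were called higher and 6 lower (52.6% called, beside 44.1% of all genes), and the median log2 fold change was -0.03. This median lay too near 0 to give a direction, since it was 0.01 with library size scaling, 0.04 without CP+siNAT10 replicate 1, 0.0007 without CP+siNC replicate 3 and -0.11 without a filter on low counts. COL5A1, a chain of the fibril-starting type V collagen, was at 19.0, 23.2 and 21.1 CPM in CP+siNC and at 44.3, 46.0 and 43.4 CPM in CP+siNAT10. It was higher in all silenced libraries, with a log2 fold change of 1.07 ± 0.0575. COL12A1 and COL16A1, chains of collagens that sit on the surface of fibrils, were lower at -0.64 ± 0.0451 and -0.63 ± 0.0613, and COL27A1, a chain of a fibrillar collagen of cartilage, was lower at -0.49 ± 0.0604. COL6A1, a chain of the beaded-filament collagen and the most abundant of the list per length, was lower at -0.23 ± 0.0331. The basement membrane chains COL4A1 and COL4A2, named after their values were seen, were higher at 0.31 ± 0.0346 and 0.33 ± 0.0341. They overlap at their 5′ ends on opposite strands, so reads there cannot be told apart without strand. COL1A1, a chain of type I collagen, was higher at 0.38 ± 0.0853. The chains were thus mixed in direction, as were the enzymes that modify them.

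Of 17 ER chaperones and folding factors, all tested, 3 were called higher and 7 lower (58.8% called, beside 44.1% of all genes), and the median log2 fold change was -0.03 (0.005 with library size scaling). That median was -0.058 without CP+siNC replicate 3 and -0.026 without CP+siNC replicate 1. DNAJC3, a co-chaperone and inhibitor of the stress kinase PERK, was higher at 0.51 ± 0.0597, and PPIC, a cyclophilin related to PPIB, was higher at 0.32 ± 0.0408. DNAJB9, another co-chaperone, was lower at -0.39 ± 0.0518, and the prolyl isomerase FKBP2 at -0.36 ± 0.0418. CALR, the calcium-binding lectin chaperone and the most abundant of the list per length, was not called, with a log2 fold change of 0.02 ± 0.0374 that fell below 0 without CP+siNC replicate 3 or CP+siNAT10 replicate 3. Summed, the list was at 7931, 7625 and 7509 CPM in CP+siNC and at 6967, 7012 and 7043 CPM in CP+siNAT10, lower in every silenced library. HSP90B1, a heat shock chaperone of the ER named after its values were seen, was lower at -0.27 ± 0.0355 and had the most counts of the list.

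Several members, P4HA1 and PLOD2 among them, are known to be induced by hypoxia, so a list of hypoxia response genes was read beside the set. Of 15 genes 14 were tested, 4 were called higher and 5 lower (64.3% called, beside 44.1% of all genes), and the median log2 fold change was -0.01 (0.02 with library size scaling). Without CP+siNC replicate 1 this median was -0.04, and without CP+siNAT10 replicate 3 it was -0.002. VEGFA, the endothelial growth factor, was at 179.3, 178.5 and 174.6 CPM in CP+siNC and at 302.4, 285.2 and 299.2 CPM in CP+siNAT10, with a log2 fold change of 0.74 ± 0.0338. NDRG1, a stress-induced gene, was also higher at 0.43 ± 0.0405. SLC2A1, the glucose transporter, was at 77.6, 85.4 and 71.5 CPM in CP+siNC and at 39.0, 44.7 and 40.7 CPM in CP+siNAT10, with a log2 fold change of -0.92 ± 0.0544. LDHA, which makes lactate, was lower at -0.43 ± 0.0321, and ENO1, a glycolytic enzyme and the most abundant of the list per length, had 0.06 ± 0.0344 and was called only with library size scaling (0.09).

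**Figure D4:**
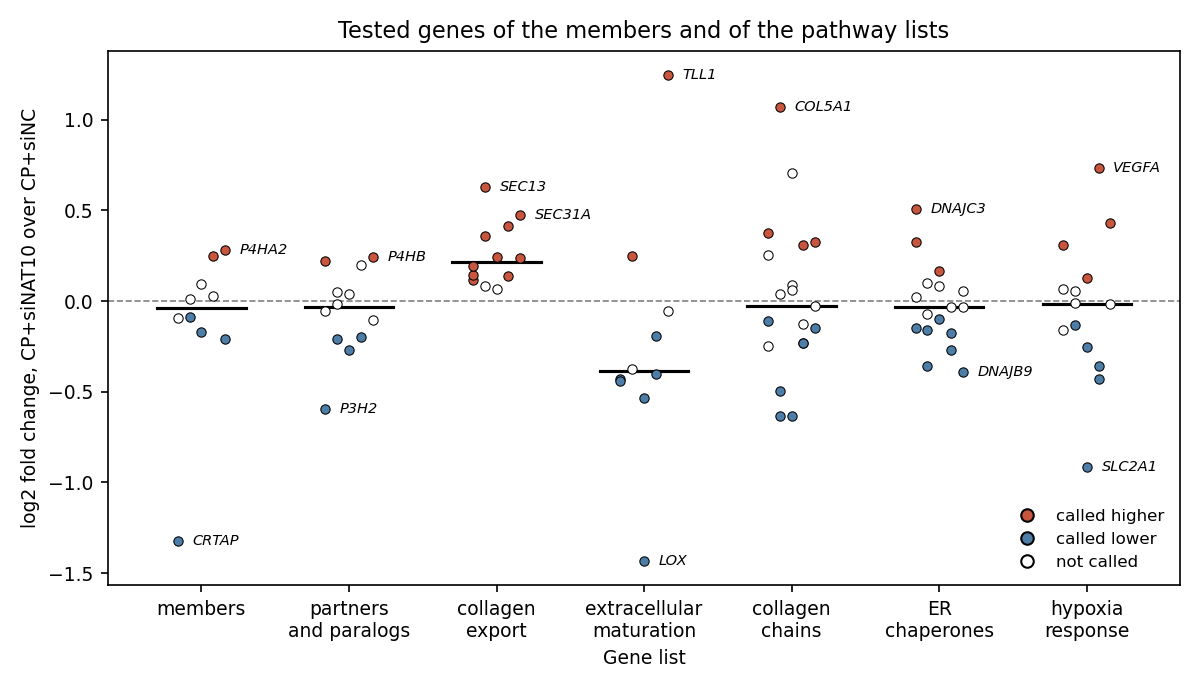
Log2 fold change (CP+siNAT10 over CP+siNC) of each tested gene of the 10 members and of the 6 pathway lists; red points are called higher, blue lower and white not called, black lines are medians, and the dashed line marks 0. In the export list 10 of 12 genes were called higher and none lower, CRTAP and LOX are the lowest points, and library size scaling moves every median up with that of all genes, from 0.01 to 0.04, which takes those of the members, partners, chains, chaperones and hypoxia genes past 0.

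Of the 5 genes whose centred log2 CPM over the 6 libraries lay nearest to CRTAP, by Euclidean distance among 11227 genes with a symbol that averaged 5 CPM or more, 4 are given here, NEU1, PEG10, IFIT1 and IFIT3. NEU1, the lysosomal sialidase, had a distance of 0.113 and a log2 fold change of -1.34 ± 0.0440. PEG10, a gene derived from a retrotransposon, had a distance of 0.116 and a log2 fold change of -1.39 ± 0.0327. The interferon-induced genes IFIT1 and IFIT3 had distances of 0.127 and 0.132, and IFIT1 was far less abundant, near 17.3 CPM in CP+siNC. With 6 libraries in separate groups, this likeness is mostly the size of the step between the groups.

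The labelled cell type was read against markers. Of 14 tubule epithelium markers, 8 were tested, and the list summed to between 2098 and 2158 CPM in CP+siNC and between 2052 and 2084 CPM in CP+siNAT10. KRT8 was the most abundant, and KRT18, KRT19, GGT1, PAX8 and CDH2 were present. PAX8 was called higher at 0.59 ± 0.0574 on the log2 scale and KRT18 lower at -0.36 ± 0.0329. The epithelial cadherin CDH1 was at or below 0.106 CPM in every library. The markers of differentiated proximal tubule LRP2, CUBN, SLC34A1, ANPEP and MME were at or below 0.374 CPM in every library, so these cells do not carry the full profile of that segment. Fibroblasts, the main makers of fibrillar collagen, were represented by 10 markers, of which 3 were tested. Their sum was between 22.1 and 23.9 CPM in CP+siNC and between 23.7 and 30.6 CPM in CP+siNAT10, LUM and COL1A1 were the most abundant, COL1A1 was called higher, 3 of the 10 (COL1A1, COL1A2 and COL3A1) also belong to the collagen chains, and COL1A2, DCN, FAP, POSTN and PDGFRA were at or near 0. None of 6 endothelial markers was tested, and their sum did not pass 0.561 CPM in any library.

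Of 6 leukocyte markers, 2 were tested and both were called higher, where 44.1% of all genes tested were called and 21.8% were called higher. Their sum was 208.7, 197.9 and 215.9 CPM in CP+siNC and 287.8, 265.5 and 268.2 CPM in CP+siNAT10, and nearly all of it was CD68, a lysosomal protein that many cells make. PTPRC was between 0.363 and 0.467 CPM in CP+siNC and between 0.475 and 1.33 CPM in CP+siNAT10. Its call rested on few counts, 8, 10 and 7 in CP+siNC and 10, 29 and 17 in CP+siNAT10, with the most in CP+siNAT10 replicate 2. CD3E, MS4A1, LYZ and ITGAM were at or below 0.412 CPM in every library. Any part of these markers in the values of the collagen-modifying genes was not tested.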

How the data were processed

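RNA of Cisplatin-treated HK-2 cells was sequenced in 3 libraries per group, and samples were grouped and numbered from their labels. The values deposited by the authors are raw read counts per gene, with gene lengths. The submitters' processing notes name Trimmomatic 0.36, STAR 2.5.3a, featureCounts, Subread 1.5.1 and edgeR 3.12.1 and the build GRCh38. The library kit keeps strand and adds molecular identifiers, meant for correcting duplicate reads. That either was used in counting is not given in the sources used here.

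The fit was made in R 4.3.3 by edgeR 4.0.16 (filterByExpr with a minimum count of 10 and a minimum total of 15, TMM, glmQLFit, glmQLFTest, Benjamini-Hochberg adjustment over 19874 genes). CPM and RPKM are relative to TMM-scaled library sizes. Nothing says that the libraries came from separate cultures, so p-values measure the spread between these libraries. The precision for each gene depends on its read counts and on the spread between libraries. The scripts were tested on simulated data.

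The members and lists were chosen with earlier results of these data known. Named genes were the 10 members and NAT10, P4HB, COLGALT1, up to 4 called genes per list with the largest change, at least 5 CPM and no overlap between the groups, the most abundant of each list per length, the 5 genes nearest to CRTAP, and cell type markers. Some genes this rule names are not reported here. Genes named outside it are said to have been picked after their values were seen. Alternatives were RLE, upper-quartile and library size scaling, no filter and a stricter filter (50 counts in 3 libraries), DESeq2 1.42.0, the replicate number as a block, and leaving out each library. RefSeq windows and plots used Python 3.11.15 and matplotlib 3.10.9.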

Additional observations from a re-analysis of the deposited data

How the results depend on the processing

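All 13 alternatives were run. Genes called over all genes numbered between 6652 (DESeq2) and 8836 (library size scaling), and called members between 5 and 7. The log2 fold change of CRTAP lay between -1.34 and -1.28 in all 13, and that of NAT10 between -0.85 and -0.79. CRTAP, PPIB, SERPINH1, P4HA2 and PLOD3 were called in the same direction in each of them. The values of PLOD2 with 1 library left out ran from -0.0036 to 0.023, and those of CALR from -0.019 to 0.047, and both changed sign when replicate 3 of CP+siNC, or replicate 3 of CP+siNAT10, was left out. The cause was not tested.

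Replicate numbers are shared between the groups. Deviations of libraries with the same number correlated at 0.00808, 0.0639 and -0.205, so the numbers do not pair the libraries. With the replicate block 8526 genes and 5 members were called, FKBP10 (-0.09) not among them, and CRTAP had -1.32. Only CP+siNAT10 replicate 2 correlated best with the library of its own number in the other group. Genes with few counts, such as TLL1 and PCOLCE, had the larger errors, and depth limits those most.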
